A study of Homo sapiens with 3 samples.

Results

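The genes described here encode adhesion and junction proteins of epithelial cells: the cadherins CDH1, CDH2, CDH3 and CDH6, the epithelial adhesion molecule EPCAM, and the claudins CLDN1, CLDN3, CLDN4, CLDN6 and CLDN7. They are 10 of the 36601 genes in the count tables and were found by symbol. They had been picked with their ratios between these same libraries already known, so every level and ratio below is a description and none was tested. OVCAR3, an established line from a high-grade serous carcinoma of the ovary, was treated for 48 hours and profiled by droplet single-cell RNA-sequencing, and 3 conditions are described, while a library given the EZH2 inhibitor alone was not analysed here. DMSO cells received the vehicle, RAC1i cells received 50 µM NSC23766, an inhibitor of the small GTPase RAC1, and Combo cells received 50 µM NSC23766 with 5 µM GSK126, which inhibits EZH2, the methyltransferase of histone H3 lysine 27. There was 1 library per condition, all from 1 line, so no spread between cultures could be measured, and culture, library and treatment cannot be told apart. Unless said otherwise, 3 values in a row are in the order DMSO, RAC1i and Combo. All intervals are 95% intervals for counting error only.

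Classical cadherins are calcium-dependent receptors that bind the same cadherin on the neighbouring cell and are tied to actin through beta-catenin and alpha-catenin at adherens junctions. Claudins are 4-pass membrane proteins that form the strands of tight junctions and set which ions pass between cells, and EPCAM is a surface glycoprotein of simple epithelia that binds and stabilises claudins such as CLDN7. Serous ovarian cancers generally keep CDH1, EPCAM, CLDN3 and CLDN4, and the repressor SNAI1 is known for binding E-box elements in the CDH1 and claudin promoters during epithelial-mesenchymal transition.

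After the filters on cells, 7531 DMSO, 10215 RAC1i and 8239 Combo cells remained, with 199063947, 234969742 and 212792113 unique molecular identifiers (UMIs, each a counted transcript molecule). The median cell held 26750, 20989 and 24953 UMIs, of which 5.60%, 1.66% and 1.58% were mitochondrial. The higher mitochondrial share of DMSO cells touches every DMSO comparison below. Leaving mitochondrial genes out of the totals moved the median log2 ratio of the 9 compared genes from -1.04 to -1.11 in RAC1i over DMSO. In Combo over DMSO it moved from -0.74 to -0.81. Any other part of that share in the ratios was not tested. Of 10 epithelial and serous markers, 9, 8 and 7 reached 10 CPM (UMIs of the gene per 1000000 UMIs, summed over the kept cells) in DMSO, RAC1i and Combo, and their summed level was 3861, 1890 and 2085 CPM. No marker of stroma, mesothelium, leukocytes or endothelium reached 10 CPM in any library, and those 4 lists summed to between 1.30 and 8.55 CPM, the highest being leukocyte genes under RAC1i, mostly CD14 at 7.62 CPM. Pairs of libraries shared 15 to 23 kept cell barcodes. RAC1 stood at 462, 589.7 and 577 CPM and EZH2 at 32.1, 12.4 and 15.2 CPM in DMSO, RAC1i and Combo. Both compounds act on the protein, so these transcript levels check no label.

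The cadherins showed the largest difference of the set. CDH6, a type II cadherin of the developing kidney that serous ovarian cancers often express, was at 571.6, 23.7 and 17.8 CPM, from 113786, 5572 and 3788 UMIs. It was high in DMSO alone and low in both libraries given NSC23766. The RAC1i level was 24.1-fold lower than DMSO (ratio 0.0415, interval 0.0404 to 0.0426, log2 ratio -4.59), and the Combo level was 32.1-fold lower (ratio 0.0311, interval 0.0301 to 0.0322, log2 ratio -5.00). Only 0.0570% of the genes compared had a lower RAC1i over DMSO ratio. The summed level of the 4 cadherins was 635 CPM in DMSO, most of it CDH6, and 54.4 and 43.996 CPM in RAC1i and Combo.

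CDH1, which encodes E-cadherin, was at 47.1, 22.9 and 19.6 CPM. The ratios to DMSO were 0.486 and 0.417, and the interval of the RAC1i ratio, 0.470 to 0.502, reached across the 2-fold line. CDH3, or P-cadherin, was at 15.9, 5.32 and 4.85 CPM, and the RAC1i and Combo intervals overlapped each other but not that of DMSO. CDH2, or N-cadherin, the cadherin that mesenchymal and neural cells use, was at 0.889, 2.51 and 1.72 CPM, from 177, 590 and 366 UMIs. It stayed below 10 CPM in every library and so entered no count of members, although its RAC1i over DMSO ratio was 2.82 (interval 2.38 to 3.36). The mesenchymal cadherin was thus rare throughout, with a UMI in 2.02%, 5.09% and 4.02% of kept cells.

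EPCAM was at 319.7, 274 and 302 CPM, highest in DMSO and lowest in RAC1i. Its RAC1i over DMSO log2 ratio of -0.22 lay beside the median of -0.20 over all 8778 genes compared, and 49.4% of genes lay below it. Combo over DMSO was -0.08, which turned positive with TMM factors and with DESeq2 size factors.

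The claudins went in different directions. CLDN3 was at 325, 131 and 180.4 CPM, and CLDN7 was at 199.6, 92.3 and 119 CPM. Both were highest in DMSO, lowest in RAC1i and in between in Combo, with no overlap of intervals. CLDN3 was 2.48-fold lower in RAC1i and 1.80-fold lower in Combo than in DMSO, and CLDN7 was 2.16-fold and 1.67-fold lower. CLDN4, which lies beside CLDN3 in the genome and likewise encodes a receptor for Clostridium perfringens enterotoxin, was at 111, 103 and 110.2 CPM. Its DMSO and Combo intervals overlapped, and the sign of both its DMSO log2 ratios (-0.11 and -0.01) changed between processing settings.

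CLDN6, a claudin of embryonic epithelia that some ovarian cancers re-express, was the single member at 10 CPM or more that was higher in the treated libraries, at 10.5, 29.7 and 27.2 CPM. The ratios to DMSO were 2.83 (interval 2.69 to 2.97) and 2.59 (interval 2.46 to 2.72). CLDN1, a barrier-forming claudin, was at 32.4, 33.0 and 21.6 CPM. Its DMSO and RAC1i intervals overlapped and the sign of their log2 ratio (0.03) turned negative when mitochondrial genes were left out of the totals, whereas Combo was lower than both, with a ratio to RAC1i of 0.654 (interval 0.630 to 0.678).

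**Figure D1:**
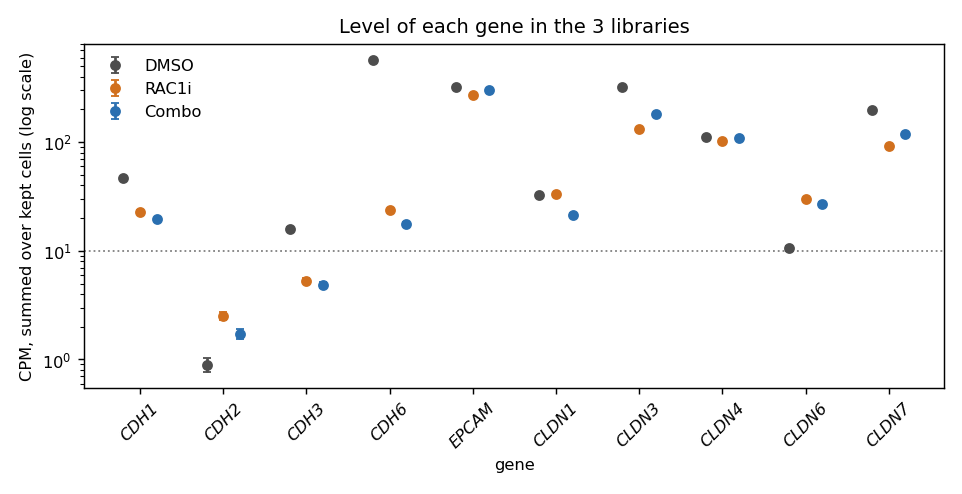
Level of each of the 10 genes in CPM (log axis) in the DMSO, RAC1i and Combo libraries, 1 point per library, with bars for the 95% Poisson interval of the summed count and a dotted line at 10 CPM. CDH6 stands at 571.6 CPM in DMSO and 23.7 and 17.8 CPM in the treated libraries, while the 3 EPCAM points and the 3 CLDN4 points lie close together.

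Sequences of the promoters are shown because SNAI1 is known to bind the E-box written CAGGTG on one strand and CACCTG on the other, and the members with this element include CLDN3, CLDN6 and CLDN7. RefSeq windows of 300 bases (250 before and 50 after the annotated start, GRCh38.p14) were held for 6 of the 10 genes in 8 entries. CDH1, CDH3, CDH6 and EPCAM had no entry. In 35116 such windows of all genes, 20.6% held at least 1 copy, 3.49% at least 2 and 0.0940% (33 windows) at least 5. CLDN7 held 5 copies in one of its 2 windows and none in the other, CLDN3 and CLDN6 held 1 copy each, and CLDN1, CLDN4 and both CDH2 windows held none. The stretches below read 5′ to 3′ along the gene strand, which is the reverse strand for all of them, with the element in capitals. The fifth CLDN7 copy lies just after the last stretch and is not printed. A match describes the letters only, and neither binding nor a part in any ratio was tested.
CLDN3, chr7:73770221-73770250: cccacaaagccacaggCAGGTGcaggcgca
CLDN6, chr16:3018134-3018163: ttatctccttcgCAGGTGagtccggggcta
CLDN7, chr17:7262635-7262664: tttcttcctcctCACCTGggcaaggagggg
CLDN7, chr17:7262596-7262625: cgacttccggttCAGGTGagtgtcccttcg
CLDN7, chr17:7262475-7262504: tatactCAGGTGcgcccCACCTGtccgccc

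In RAC1i over DMSO, 9 of the 10 genes reached 10 CPM in the higher library. Of these, 5 were over 2-fold lower (CDH1, CDH3, CDH6, CLDN3 and CLDN7), where 24.6% of all genes compared were over 2-fold lower, and 1 was over 2-fold higher (CLDN6), where 13.1% were over 2-fold higher. The median log2 ratio of the 9 was -1.04 against -0.20 over all genes. Since the genes were picked from this contrast, nothing is read from these shares. With the size factors of DESeq2 in place of total UMIs, the median of all genes moved to -0.07 and the number over 2-fold lower was 3, because CDH1 (-0.93) and CLDN7 (-0.9986) no longer passed. CDH1 also fell short of 2-fold with TMM factors (-0.96), a mitochondrial limit of 10% (-0.9873), CPM averaged over cells (-0.90) and thinned cells (-0.9877), which is 5 of the 9 alternatives.

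In Combo over DMSO, 3 of the 9 were over 2-fold lower (CDH1, CDH3 and CDH6), against 22.8% of genes, and CLDN6 alone was over 2-fold higher, against 11.8% of genes. The median of the 9 was -0.74 against -0.18 over all 8745 genes. Both comparisons use the same DMSO library, so their shared direction is not independent support.

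Combo and RAC1i differed by the added EZH2 inhibitor. Of the 8 members at 10 CPM here, none was past 2-fold in either direction. Of 7443 genes, 0.0269% were over 2-fold higher and 0.0134% over 2-fold lower. CDH2 and CDH3 were below 10 CPM in both libraries. Differences between these libraries were small for genes in general, and the middle 50% of log2 ratios ran from -0.12 to 0.14. Against that narrow spread CLDN3 was 1.38-fold higher in Combo (interval 1.35 to 1.40), with 99.1% of genes below it, and CLDN7 was 1.29-fold higher (interval 1.27 to 1.32), with 97.4% of genes below it. At the other end, CLDN1 had a log2 ratio of -0.61 with 0.376% of genes below it, and CDH6 one of -0.41 with 2.15% below it. EPCAM, CLDN4, CLDN6 and CDH1 had log2 ratios between -0.22 and 0.14. Of the genes below 10 CPM, CDH3 had a log2 ratio of -0.14 and CDH2 one of -0.55 (interval -0.74 to -0.36). The CDH2 value ranged from -0.58 to -0.19 between processing settings. Without a second library of either condition, these positions have no replicate check. By tertile of UMIs per cell, from fewest to most, the Combo over RAC1i ratio of CLDN3 was 1.11, 1.34 and 1.43. That of CLDN7 was 1.12, 1.23 and 1.34, and the part of depth in these ratios was not tested.

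**Figure D2:**
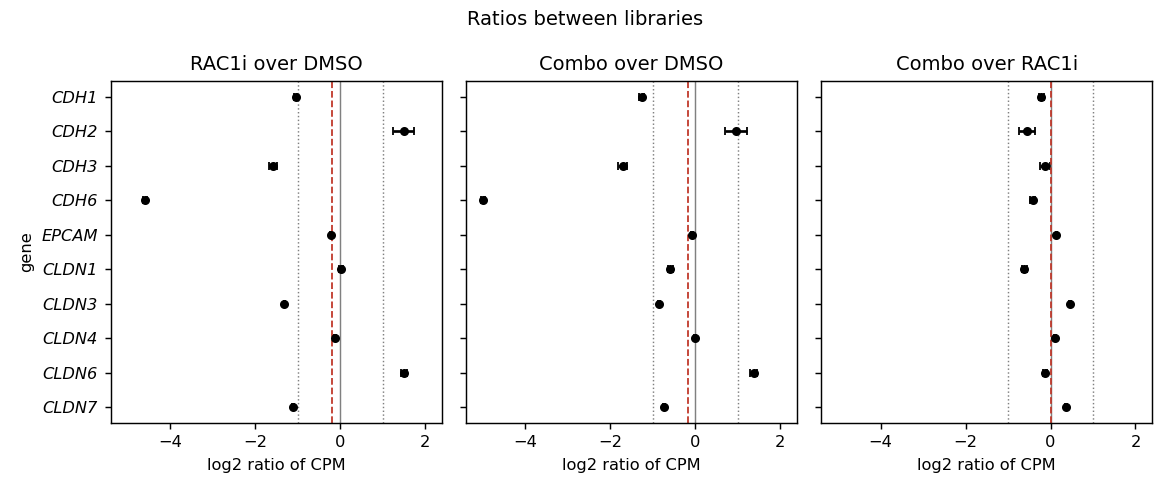
Log2 ratio of CPM for each gene in RAC1i over DMSO, Combo over DMSO and Combo over RAC1i, with 95% counting intervals, dotted lines at 2-fold and a dashed red line at the median of all genes compared. CDH6 lies at -4.59 and -5.00 in the comparisons with DMSO, CLDN6 above the upper 2-fold line in both, and every gene lies between the 2-fold lines in Combo over RAC1i.

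The share of cells with a UMI was set at 1 depth by drawing 5000 UMIs from each cell, which left 6725, 9200 and 7354 cells and left out 806, 1015 and 885 shallower ones. CDH6 was found in 82.4% of DMSO cells (interval 81.5% to 83.3%), 9.55% of RAC1i cells (8.96% to 10.2%) and 7.91% of Combo cells (7.31% to 8.55%). Without thinning the shares were 88.3%, 25.4% and 23.0%. The DMSO cells with CDH6 also held more of it, at 3.34 UMIs per positive cell against 1.29 and 1.24. In DMSO 12.5% of cells held 6 or more CDH6 UMIs and 17.6% held none. In RAC1i 48 of 9200 cells and in Combo 27 of 7354 cells held 3 or more, against 3122 of 6725 in DMSO. The culture holds a single line, so no cell type lacking these genes was at hand to measure the UMIs that free RNA in the droplets contributes, and its part in the low shares was not tested.

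Thinned shares of the other members followed their levels. CLDN3 was found in 71.4%, 38.8% and 46.5% of DMSO, RAC1i and Combo cells (88.2%, 70.0% and 73.6% unthinned), and CLDN7 in 57.6%, 30.2% and 35.7% (82.8%, 61.7% and 66.5% unthinned). EPCAM was found in 73.2%, 71.1% and 72.3% of cells and CLDN4 in 38.2%, 35.7% and 37.8%. These orders changed with depth. Without thinning, EPCAM was found in 86.3%, 89.1% and 88.7% and CLDN4 in 72.2%, 72.2% and 72.4%. Drawn to 2500 UMIs, CLDN4 was found in 21.3%, 23.9% and 23.3%. The shares of CDH1 were 19.6%, 10.4% and 9.11%, those of CDH3 6.93%, 2.60% and 2.54%, and those of CLDN1 10.9%, 12.2% and 8.58%. CLDN6 was found in 4.70%, 11.9% and 10.6% of cells, so its higher level went with more cells carrying a UMI. CLDN6 UMIs per positive cell were 1.04, 1.21 and 1.27. Median members per cell were 4 in DMSO and 2 in each treated library, and 2.66%, 6.20% and 6.19% of cells had a UMI of none of the 10. Cells with UMIs of EPCAM, CLDN3 and CLDN7 together made up 35.0%, 11.5% and 16.6%, and cells with CDH6 as well made up 31.4%, 1.80% and 1.86%.

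**Figure D3:**
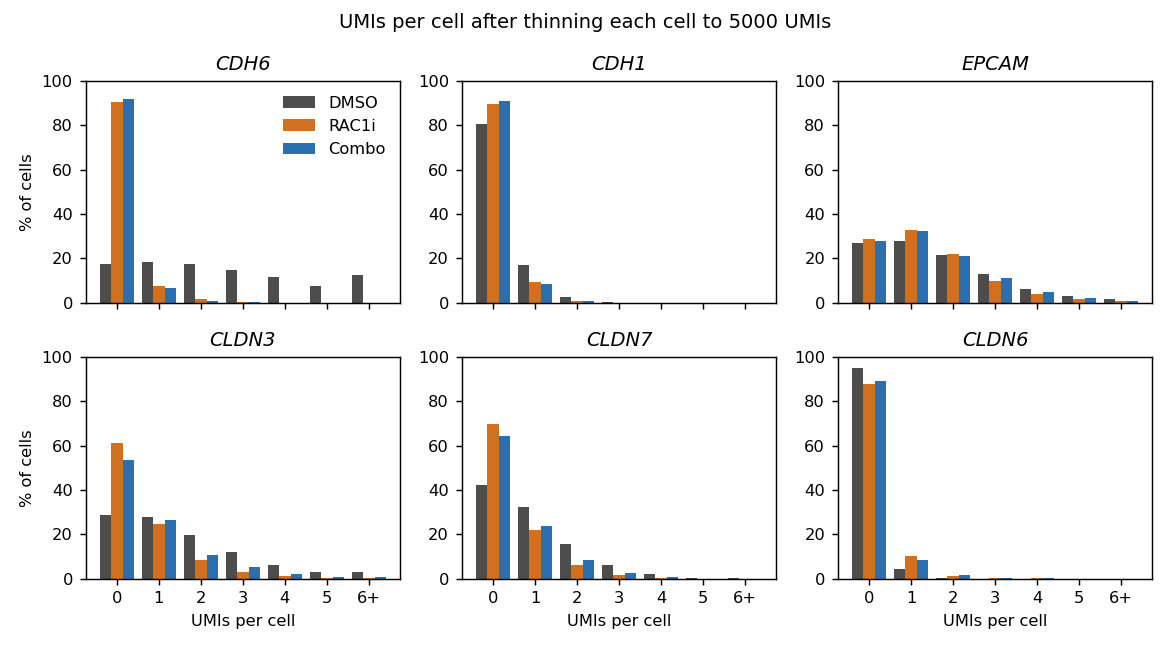
Percent of cells (vertical axis) with 0 to 6 or more UMIs (horizontal axis) of 6 of the genes in DMSO, RAC1i and Combo, after drawing 5000 UMIs per cell. For CDH6 the DMSO bars spread over all classes with 17.6% at 0, whereas 90.4% of RAC1i and 92.1% of Combo cells are at 0, and for EPCAM the 3 libraries lie close together.

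Co-expression over single cells was described by Pearson r of log(1 + UMIs) in the thinned cells, where all points of a library share a culture, a library and a range of mitochondrial shares, and most r values were too weak in such sparse counts to be a finding. The pair CLDN3 and CLDN7 had r of 0.16, 0.19 and 0.25 over the 6725, 9200 and 7354 cells. CLDN7 was found in 61.2% of DMSO cells with CLDN3 and 48.8% of those without, in 38.5% and 24.9% of RAC1i cells, and in 1539 of 3420 Combo cells with CLDN3 and 27.6% of those without. CLDN3 and CLDN4, neighbours on chromosome 7, had r of 0.19, 0.13 and 0.18. EPCAM and CDH6 had r of 0.21 in DMSO, and 0.05 and 0.07 in the treated libraries, where few cells held CDH6. A cadherin switch within cells would be seen in CDH1 and CDH2, but only 10, 11 and 3 cells held UMIs of both, against 5.68, 11.5 and 7.11 from the product of their shares, which is too few to describe.

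**Figure D4:**
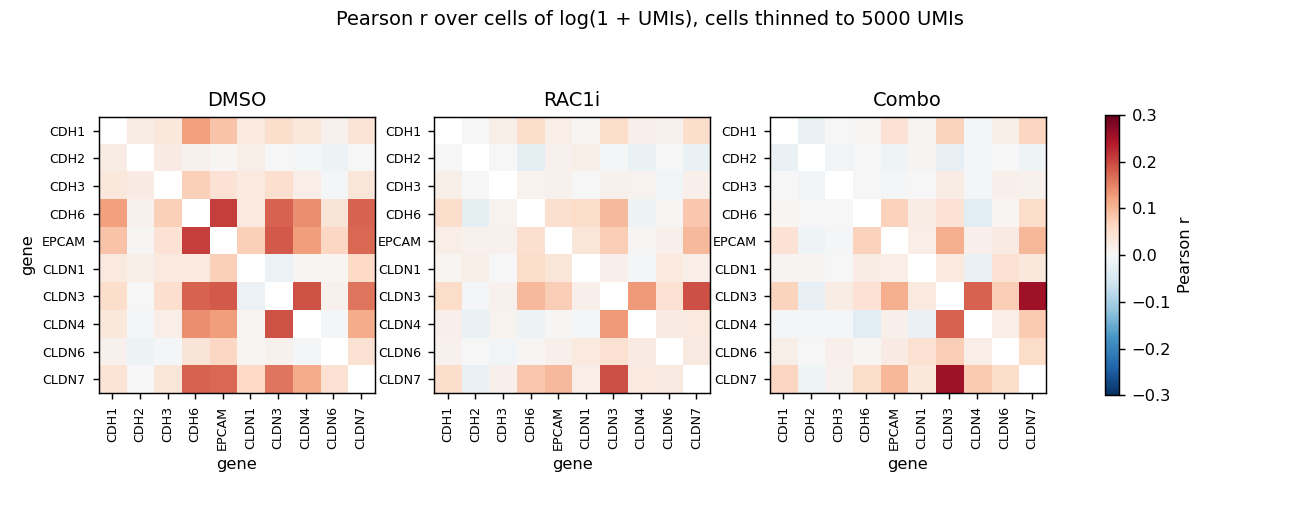
Pearson r over cells of log(1 + UMIs) for each pair of the 10 genes in DMSO, RAC1i and Combo, cells thinned to 5000 UMIs, on a colour scale from -0.3 to 0.3 with the diagonal left blank. The darkest cells are EPCAM with CDH6 in DMSO (0.21) and CLDN3 with CLDN7 in Combo (0.25), and the CDH2 rows are near 0.

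Among 2143 genes at 50 CPM or more in every library, those with the highest mean r over the 3 libraries were listed for each member at 10 CPM or more throughout. For CDH6 these were the mitochondrial transcripts MT-CO3 (0.22), MT-ND4 (0.22) and MT-ND3 (0.22), with r for MT-CO3 of 0.47, 0.12 and 0.08. For EPCAM they were SPINT2 (0.23), CD47 (0.22) and CD9 (0.21). For CLDN3 they were NEAT1 (0.26), TM4SF1 (0.23) and CD9 (0.22), for CLDN7 NEAT1 (0.25), MALAT1 (0.22) and CD9 (0.21), and for CLDN4 NEAT1 (0.18), CLDN3 (0.17) and MT-CO2 (0.15). NEAT1 and MALAT1 are long noncoding RNAs kept in the nucleus. The nearest genes of CLDN1 (UGCG, ARHGAP29 and IER3), CLDN6 (MDK, NMU and SLC3A2) and CDH1 (NEAT1, MT-ND3 and MT-CO2) had mean r between 0.05 and 0.11 only.

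Because CDH6 followed the mitochondrial share within libraries, each library was split into tertiles of that share. CDH6 was at 389 CPM in the lowest and 680 CPM in the highest tertile of DMSO, at 15.5 and 49.2 CPM in RAC1i, and at 12.9 and 34.6 CPM in Combo. The median mitochondrial share was 1.14% and 9.04% in those tertiles of DMSO and 0.838% and 3.77% in those of RAC1i. The tertiles were set within each library, so tertiles of the same rank differ between libraries in mitochondrial share and in depth, with 9008 median UMIs in the lowest tertile of DMSO and 26444 in that of RAC1i. Across this split and those by UMIs per cell, by 12 mitosis genes and by 5 chemokine genes, CDH6 in RAC1i was between 0.0203 and 0.0723 of the level in the DMSO class of the same name, and in Combo between 0.0251 and 0.0509. All members but CDH2 and EPCAM were higher in the highest than in the lowest mitochondrial tertile of every library, CLDN6 included, by 1.63-fold to 1.90-fold for CDH1 by 1.29-fold to 1.61-fold for CLDN7 and by 1.12-fold to 1.30-fold for CLDN6. From the lowest to the highest tertile, the RAC1i over DMSO ratio was 0.366, 0.414 and 0.510 for CLDN3 and 0.463, 0.439 and 0.577 for CLDN7, so neither was over 2-fold lower in the highest tertile. For CLDN6 the ratios were 3.15, 2.76 and 2.98. For EPCAM they were 1.04, 0.844 and 0.808, and the Combo over DMSO ratios were 1.16, 0.960 and 0.825. EPCAM was thus higher in the treated libraries than in DMSO in the lowest tertile only.

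CLDN1 went with the chemokine genes CXCL1, CXCL2, CXCL3, CXCL8 and IL6, secreted signals that attract leukocytes and drive inflammation. In cells with 3 or more UMIs of those genes it was at 118, 54.1 and 46.0 CPM, and in cells with none it was at 27.1, 17.3 and 12.6 CPM. That is 4.33-fold, 3.13-fold and 3.64-fold higher in the chemokine-high cells, which numbered 196, 3452 and 1775 against 5793, 2652 and 3137 without. The CLDN1 level of RAC1i was below that of DMSO inside both classes, and more RAC1i cells were in the high class. The part of the class sizes in the near-equal library totals was not tested. CLDN7 and CLDN3 went the other way in the treated libraries: CLDN7 in chemokine-high cells was 0.626 of its level in cells with none in RAC1i and 0.602 in Combo, and CLDN3 was 0.732 and 0.695, while in DMSO the ratios were 1.04 and 0.956. CDH2 was 3.66-fold, 1.76-fold and 1.63-fold higher in the chemokine-high cells, the DMSO value from 19 UMIs. Inside that class its ratios to DMSO were 1.02 (interval 0.642 to 1.73) in RAC1i and 0.749 (interval 0.456 to 1.29) in Combo. In cells with none they were 2.13 and 1.69. The cells were classed by a cut on a count, and 736, 3096 and 2442 cells with 1 or 2 UMIs of the 5 genes lay between the classes.

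The claudins also differed with UMIs per cell. CLDN7 was 1.19-fold, 1.80-fold and 2.14-fold higher in the tertile of cells with the most UMIs than in that with the fewest. CLDN4 was 1.12-fold higher in DMSO but 0.632 and 0.711 of the low-UMI level in RAC1i and Combo, where the cells with the fewest UMIs held 151 and 149.8 CPM. The cells with the fewest UMIs in DMSO held 95.4 CPM, so in that tertile the RAC1i and Combo ratios to DMSO were 1.59 and 1.57. They were 0.797 and 0.852 in the middle tertile and 0.892 and 0.994 in the highest. CLDN1 was 2.31-fold, 1.39-fold and 1.22-fold higher and CLDN6 1.67-fold, 1.21-fold and 1.36-fold higher in the tertile with the most UMIs, and the ratios of CLDN3 were 0.957, 1.29 and 1.66.

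Treated cells with a CDH6 UMI after thinning were compared with the rest of their library. Without thinning, 25.4% of RAC1i and 23.0% of Combo cells held a CDH6 UMI. The class without a CDH6 UMI therefore includes cells that hold CDH6, and whether the others form a separate group was not tested. In RAC1i, PAX8, a lineage transcription factor of the fallopian tube and serous cancers, was at 43.7 CPM in cells without a CDH6 UMI, 106 CPM in the 879 cells with at least 1 and 212.5 CPM (interval 158 to 279) in the 48 cells with 3 or more. In the same order of cell classes, kept for the values that follow, the PAX8 levels in Combo were 41.3, 82.1 and 193 CPM (interval 126 to 282). NECTIN3, a nectin that works beside cadherins at adherens junctions, followed with 12.7, 26.2 and 83.3 CPM in RAC1i and 9.75, 15.8 and 29.6 CPM in Combo, the last from 4 UMIs. CLDN7 was at 79.4, 116 and 167 CPM in RAC1i and at 102, 137 and 185 CPM in Combo. Its intervals in the last 2 classes overlapped in both libraries. CLDN4 was at 108, 101 and 79.2 CPM in RAC1i, where all 3 intervals overlapped. In Combo CLDN4 was at 118, 96.6 and 119 CPM, the last with an interval of 67.7 to 192. In DMSO, CLDN4 was higher in the cells with CDH6, at 68.8, 119 and 131 CPM. The metallothionein gene MT2A was lower in these cells, at 8380, 6311 and 4196 CPM in RAC1i and 12850, 9922 and 5422 CPM in Combo, as was ELF3 at 600.3, 506 and 233 CPM in RAC1i and 537, 475 and 215 CPM in Combo. ELF3 went the other way in DMSO, at 139, 189.9 and 204 CPM. The median mitochondrial share was 1.49%, 2.16% and 3.91% in the same 3 classes of RAC1i cells and 2.00%, 6.35% and 6.85% in those of DMSO, where the median UMIs were 15999, 29955 and 29964. In DMSO all 9 other members were higher in cells with CDH6 than in those without. The intervals overlapped for CLDN6 and for CDH2, which had 2 UMIs in cells without CDH6 and 27 in those with it. The part of mitochondrial share and depth in these differences was not tested. PAX8 and MT2A were picked for this comparison with their changes in these libraries known.

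**Figure D5:**
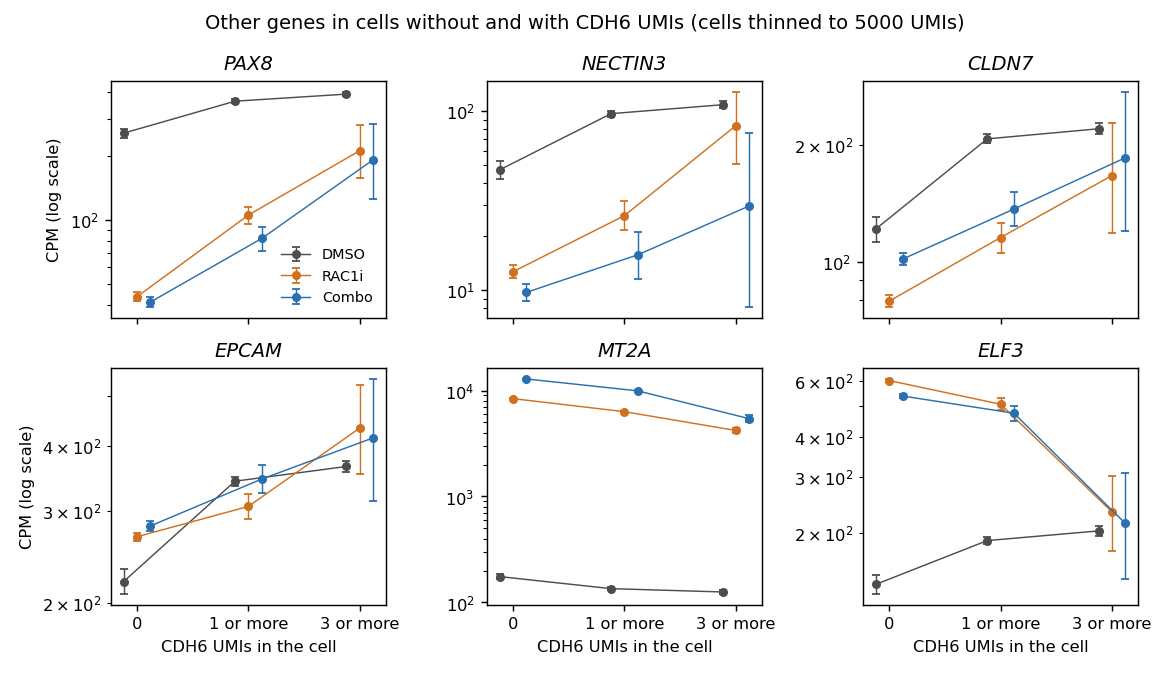
CPM (log axes that differ between panels) of 6 genes in cells with 0, with 1 or more, and with 3 or more CDH6 UMIs, in DMSO, RAC1i and Combo cells thinned to 5000 UMIs, with 95% Poisson intervals. PAX8, NECTIN3, CLDN7 and EPCAM are higher in cells with CDH6, MT2A is lower, and the treated points at 3 or more rest on 48 and 27 cells.

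Of the wider cadherin family, 4 of 23 genes reached 10 CPM in any library, and the one outside the set, CDH18, was at 17.1 CPM in DMSO and 1.60 and 1.23 CPM in the treated libraries. All 4 were over 2-fold lower in both comparisons with DMSO, 3 of them being members picked from these ratios. Below 10 CPM the family held genes that went the other way besides CDH2. CDH16, the kidney-specific cadherin, had 6, 913 and 774 UMIs (0.0301, 3.89 and 3.64 CPM), a RAC1i over DMSO ratio of 129 with an interval of 59.0 to 352, and CDH4 had 1, 48 and 49 UMIs. Of 24 claudins, 9 reached 10 CPM, of which 5 were over 2-fold lower and 1 higher in RAC1i over DMSO, and 3 lower and 1 higher in Combo over DMSO. Over all genes, 24.6% were lower and 13.1% higher in RAC1i over DMSO, and 22.8% and 11.8% in Combo over DMSO, shares that stand beside the list counts that follow. Outside the set, CLDN16, a claudin for magnesium and calcium passage in the kidney, was at 58.6, 24.2 and 15.4 CPM, CLDN10 at 10.8, 2.16 and 1.90 CPM, CLDN12 at 10.2, 5.09 and 4.65 CPM, and CLDN9 at 10.5, 8.23 and 11.8 CPM.

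Of the catenins and their binding proteins at 10 CPM, 1 of 6 was over 2-fold lower in RAC1i over DMSO and none in Combo over DMSO, with 24.6% and 22.8% lower over all genes. CTNNB1 (beta-catenin) was at 102, 121 and 102 CPM, CTNNA1 (alpha-catenin) at 146, 107 and 105 CPM, CTNND1 (p120-catenin) at 59.4, 46.4 and 40.2 CPM, and JUP (plakoglobin) at 68.2, 48.0 and 49.3 CPM, whereas CTNNBIP1, an inhibitor of beta-catenin, was at 56.7, 23.3 and 33.2 CPM. Among nectins and other partners, NECTIN3 (91.2, 12.9 and 10.6 CPM) and vinculin, VCL (85.2, 30.4 and 27.7 CPM), were the 2 of 6 over 2-fold lower. LIMA1, an actin-bundling protein, had the highest ratio of that list, with a RAC1i over DMSO log2 ratio of 0.74.

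Of 18 tight junction partners at 10 CPM, 5 were over 2-fold lower in RAC1i over DMSO and 4 in Combo over DMSO, and none was over 2-fold higher. The shares that were lower are close to the 24.6% and 22.8% over all genes. Cingulin, CGN, was at 51.5, 21.8 and 23.1 CPM, the junctional adhesion molecule F11R at 62.8, 24.8 and 27.3 CPM, and the polarity gene PARD6A at 44.1, 13.6 and 21.1 CPM. TJP3 (21.9, 9.85 and 11.5 CPM) and the polarity gene CRB3 (45.6, 21.4 and 23.4 CPM) were over 2-fold lower in RAC1i alone, and MPDZ (19.3, 10.7 and 9.29 CPM) in Combo alone. Of 7 desmosome genes at 10 CPM, 4 were over 2-fold lower in both comparisons: DSG2 (47.7, 16.5 and 14.9 CPM), DSC2 (39.0, 16.6 and 16.1 CPM), PKP3 (38.4, 13.7 and 14.9 CPM) and PERP (188, 92.4 and 92.0 CPM). Over all genes 24.6% and 22.8% were over 2-fold lower. The plakophilin genes PKP2 (29.7, 46.5 and 34.2 CPM) and PKP4 (33.4, 47.5 and 45.03 CPM) were instead higher in the treated libraries, by less than 2-fold. The desmosome list had a median log2 ratio of -1.02 in RAC1i over DMSO, against -0.20 over all genes.

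Among transcription factors of epithelial-mesenchymal transition, SNAI1 was at 1.56, 39.1 and 39.5 CPM, with log2 ratios to DMSO of 4.64 and 4.66. TWIST1 was at 12.7, 4.13 and 4.30 CPM, TCF4 at 21.4, 10.5 and 9.49 CPM, ZEB1 at 0.186, 1.47 and 1.09 CPM, ZEB2 at 0.231, 1.51 and 0.705 CPM, and SNAI2 under 0.05 CPM in every library. Of 11 genes in the list, 4 reached 10 CPM, 1 was over 2-fold higher and 2 were over 2-fold lower in each comparison with DMSO. The shares over all genes were 13.1% higher and 24.6% lower in RAC1i over DMSO, and 11.8% and 22.8% in Combo over DMSO. Of 10 mesenchymal markers S100A4 alone reached 10 CPM, at 1084, 987 and 890.5 CPM.

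Of 11 regulators that hold cells in an epithelial state and were at 10 CPM in RAC1i over DMSO, 6 were over 2-fold higher (OVOL1, OVOL2, ELF3, GRHL1, TFAP2C and KLF4) and 1 lower, and of 10 in Combo over DMSO, 4 were higher and 2 lower. Over all genes, 13.1% were higher and 24.6% lower in RAC1i over DMSO, and 11.8% and 22.8% in Combo over DMSO. OVOL1, a repressor of ZEB1, was at 1.14, 47.6 and 45.3 CPM, a 41.7-fold and a 39.8-fold higher level, and OVOL2 at 29.8, 60.8 and 54.0 CPM. ELF3, an epithelial ETS factor, was at 181, 524 and 456 CPM, GRHL1 at 8.48, 24.0 and 22.3 CPM, TFAP2C at 5.57, 27.1 and 25.4 CPM, and KLF4 at 3.91, 10.4 and 9.03 CPM. EHF, another epithelial ETS factor, was instead at 15.8, 2.75 and 2.24 CPM, and TFAP2A at 102, 58.1 and 49.2 CPM. GRHL2, an activator of CDH1 and claudin genes, was at 12.8, 12.02 and 13.1 CPM, and the splicing regulators ESRP1 and ESRP2 at 60.5, 47.1 and 40.1 CPM and at 9.68, 5.40 and 6.03 CPM.

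SNAI1 was found in 13.0% of RAC1i cells with CLDN7 and 19.0% of those without, and in 11.4% and 20.6% of Combo cells. Cells with UMIs of both SNAI1 and CLDN7 were 0.756 of the product of the shares in RAC1i and 0.657 in Combo (361 and 298 cells), and for SNAI1 and CLDN3 the ratios were 0.853 and 0.709 (523 and 419 cells). The r values, -0.08 and -0.12 for CLDN7 and -0.07 and -0.14 for CLDN3, were weak. In RAC1i cells with 0, 1 or more and 3 or more CDH6 UMIs, SNAI1 was at 46.3, 32.3 and 29.2 CPM. In Combo it was at 49.5, 46.0 and 66.7 CPM, and the last classes rest on 7 and 9 SNAI1 UMIs. Pairs of SNAI1 with other members are not reported here, and whether SNAI1 acts on any of these genes was not tested. With ELF3, CLDN7 had r of -0.16 in both treated libraries and 0.07 in DMSO, whereas CLDN4 had r of 0.15, 0.14 and 0.13 in DMSO, RAC1i and Combo.

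Of 13 proteases and adaptors that cleave or turn over these proteins, ST14 was over 2-fold lower in both comparisons with DMSO. ST14 (matriptase, which cleaves EPCAM) was at 46.3, 13.7 and 13.3 CPM. PRSS8 (prostasin) was over 2-fold lower in RAC1i alone, at 50.1, 23.8 and 26.6 CPM. CBLL1, or Hakai, a ubiquitin ligase for E-cadherin, was the one gene of the list over 2-fold higher, at 19.0, 61.1 and 56.6 CPM. Among all genes, 24.6% were lower and 13.1% higher in RAC1i over DMSO, and 22.8% and 11.8% in Combo over DMSO. SPINT2, an inhibitor of matriptase, was at 1180, 981 and 1048 CPM, and the sheddase gene ADAM10 at 93.4, 61.4 and 51.3 CPM.

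In the GENCODE annotation of GRCh38, CDH1 lay on chromosome 16 at 68737292 to 68835537 and CDH3 just before it at 68636189 to 68727468, both on the forward strand with 9823 bp and no protein-coding gene between them. CDH1 and CDH3 were both lower in the treated libraries. CLDN3 (chromosome 7, 73768997 to 73770270, reverse strand, a single exon) and CLDN4 (73799542 to 73832690, forward strand) were 29271 bp apart, and their RAC1i over DMSO log2 ratios were -1.31 and -0.11. CLDN6 (chromosome 16, 3014712 to 3020071, reverse strand) and CLDN9 were 206 bp apart on opposite strands, with RAC1i over DMSO ratios of 2.83 and 0.781. CLDN3 with CLDN4 and CLDN6 with CLDN9 therefore differed in their ratios although they are neighbours. CDH6 lay on chromosome 5 at 31193686 to 31329146, EPCAM on chromosome 2 at 47345158 to 47387601, CLDN1 on chromosome 3 at 190305707 to 190322446, CLDN7 on chromosome 17 at 7259903 to 7263983 and CDH2 on chromosome 18 at 27932879 to 28177946. On the opposite strand CLDN6 overlaps TNFRSF12A, CLDN7 overlaps ELP5, CDH3 overlaps its antisense gene, and CDH1, CDH2 and CDH6 each overlap an annotated gene without a symbol. CDH2 also overlaps a gene on its own strand, where strand cannot separate the reads. The counting was run at the default settings of Cell Ranger, per the study's methods, and whether reads of the opposite-strand genes entered the counts of CLDN6, CLDN7 and the cadherins was not checked.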

How the data were processed

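The authors ran 3′ droplet libraries through Cell Ranger 4.0.0 against GRCh38, per the labels, and deposited whole-number UMI counts per gene and barcode per library, and the counts of the 3 libraries described were used as deposited. As in the study's methods, barcodes were kept where genes numbered over 1000, complexity was above 0.8 and the mitochondrial share did not pass 20%. The study gives no formula for complexity, which was taken here as log10 genes over log10 UMIs. It lists slightly fewer cells for each of these conditions than were kept here. No doublet caller was run. The cells with the most UMIs were left out as an alternative. UMIs were summed per library and divided by all UMIs of the kept cells (CPM). A gene entered a comparison at 10 CPM in the higher library and was counted past a 2-fold ratio. With 1 library per condition there was no test. Levels have exact Poisson, ratios exact conditional and shares Clopper-Pearson 95% intervals. Cells were thinned once, with a fixed seed, to 5000 UMIs for shares, co-expression, cell classes and the cells with CDH6. Tertiles used all kept cells.

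The genes and gene lists were chosen with earlier results of these data known. The text names all 10 genes, every cadherin and claudin gene at 10 CPM in any library, genes of the other lists at 10 CPM and past 2-fold or at the ends of a list, fixed catenins and transcription factors, and the 3 nearest genes of each member. Some genes that this rule names are not reported here. PAX8, MT2A, ADAM10, CDH4, CDH16 and CD14 fall outside that rule and were named after their values were seen. The mitosis genes were MKI67, TOP2A, CCNB1, CCNB2, CDC20, CDKN3, HMMR, PTTG1, AURKA, DLGAP5, DEPDC1 and UBE2S. The code for ratios was tested on simulated data. Python 3.11.15, numpy 2.4.6, scipy 1.17.1, pandas 2.3.3, R 4.3.3, edgeR 4.0.16 and DESeq2 1.42.0 were used, the last 2 for scaling factors only.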

Additional observations from a re-analysis of the deposited data

How the results depend on the processing

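For the levels, 9 alternatives were tried: a mitochondrial limit of 10%, every deposited barcode, the TMM factors of edgeR, the size factors of DESeq2, thinned cells, CPM averaged over cells, totals that leave out mitochondrial genes, leaving out the 8% of cells with the most UMIs, and no minimum CPM. The number of members over 2-fold lower in RAC1i over DMSO was 5, and 3 with the size factors of DESeq2 and 4 with TMM, a 10% limit, the mean over cells and thinned cells. The number over 2-fold higher was 1, and 2 with no minimum CPM, which lets in CDH2. In the other 52 combinations of a count of members and an alternative, the count stayed within 1.5 times of the value given. Of the log2 ratios of single members under an alternative, 120 fell outside the counting interval of the value given and 120 inside. CDH1 fell short of 2-fold lower in RAC1i over DMSO with TMM, size factors, a 10% limit, the mean over cells and thinned cells, and CLDN3 passed 2-fold lower in Combo over DMSO with the mean over cells (log2 ratio -1.01). CDH6 ranged from -4.66 to -4.33 in RAC1i over DMSO and from -5.07 to -4.63 in Combo over DMSO. Signs differed between settings for CLDN4 (-0.18 to 0.29 in RAC1i and -0.08 to 0.32 in Combo over DMSO), CLDN1 (-0.04 to 0.16 in RAC1i over DMSO) and EPCAM (-0.17 to 0.04 in Combo over DMSO). The size factors moved the median of all genes from -0.20 to -0.07 in RAC1i over DMSO and from -0.18 to -0.04 in Combo over DMSO, and all members moved by the same step. With no minimum CPM, which admits genes without a UMI in 1 library, 9943 genes were over 2-fold higher and 7784 lower in RAC1i over DMSO (1151 and 2159 with the minimum), 9342 and 7774 in Combo over DMSO (1030 and 1994), and 2657 and 3003 in Combo over RAC1i (2 and 1). Over the other alternatives Combo over RAC1i had 1 to 5 genes higher and 1 lower. Shares of positive cells moved with the depth they were drawn to, and for co-expression without the cells with the most UMIs all 135 r values stayed close. No paired analysis was possible because each condition was 1 library, and no replicate could be left out.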

Other observations

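Barcodes left out for a mitochondrial share over 20% numbered 1592 in DMSO, 534 in RAC1i and 508 in Combo, and the members were measurable in them per 1000000 non-mitochondrial UMIs. Values run left-out against kept, by library. CDH6 was at 1213 in the left-out DMSO barcodes and 609 in the kept cells. Under RAC1i it was 50.7 (interval 33.7 to 73.2, 28 UMIs) against 24.1. Under Combo it was 28.8 against 18.1, but the left-out interval, 16.8 to 46.1 from 17 UMIs, included the kept level. CDH1 was at 96.7 against 50.2 in DMSO at 48.8 against 23.3 under RAC1i and at 52.5 against 19.97 under Combo, the treated values from 27 and 31 left-out UMIs. CLDN6 was at 15.8 against 11.2 in DMSO, with 25.3 against 30.3 under RAC1i and 28.8 against 27.6 under Combo, from 44, 14 and 17 left-out UMIs, and in the treated libraries the left-out intervals (13.8 to 42.5 and 16.8 to 46.1) included the kept levels. CLDN4 was at 168 against 118 in DMSO, but at 364 against 104 under RAC1i and 329 against 112 under Combo, where the left-out intervals (315 to 418 and 284 to 378) lay far above the kept cells. EPCAM was at 496 against 341 in DMSO and 220.3 against 307 under Combo. Under RAC1i EPCAM was at 304 against 279, but the left-out interval, 260 to 354, included the kept level. In Combo the left-out barcodes held no CDH2 UMI among 590137 non-mitochondrial UMIs, which allows a level of up to 6.25.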
